A study of Mus musculus with 3 samples.

Results

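Nkx2-5, Tbx5, Tbx20, Hand1, Hand2, Isl1, Mef2c and Smyd1 encode regulators that act in the precursors and the muscle of the early mouse heart. Every probe set whose only gene symbol in the platform annotation was one of these 8 names was taken, which gave 24 probe sets of the 45037 that are not array controls. A filter on dim probe sets kept 20 of the 24 and 27022 of all, and each of the 8 genes had at least 1 kept probe set. The arrays measured RNA from whole embryos at 8.5 days post coitum (dpc). The normal group was 1 array from a pool of 6 C57Bl/6J litter mates that did not carry the methylation mutation. The mutant group was 2 arrays, called biological replicates by the study's design text, from pools of 8 litter mates (mutant 1) and 6 litter mates (mutant 2). Mutant embryos were Dnmt3l-/+ on a C57Bl/6J background, each from a Dnmt3l-/- mother mated to a wildtype father. Every pool mixed the sexes, and the normal embryos' labels give no cross.

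The Dnmt3l protein helps the enzymes that place new DNA methylation in the germ line. Oocytes that lack it do not set maternal methylation imprints, and the series title calls the mutants deficient in maternal methylation. The comparison asks which transcripts differ when embryos develop without those marks.

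Heart muscle arises from mesoderm cells that form a crescent, then a tube that starts to beat and to loop at about the stage sampled here. Cells of the first heart field build the tube and much of the left ventricle, and cells of the second heart field join later at both ends and form the right ventricle and the outflow tract. Nkx2-5, a homeodomain factor, and the T-box factors Tbx5 and Tbx20 bind the control regions of muscle genes together with GATA factors. Isl1, a LIM homeodomain factor, marks dividing second field precursors, and Mef2c, a MADS box factor, acts downstream of it. Hand1 and Hand2 are basic helix-loop-helix factors of the left and the right ventricle, and Smyd1 is a muscle protein with a histone methyltransferase domain.

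Median signals lay between 130.0 and 143.6, after a scaling of the deposited values that gives every array the same trimmed mean. Over probe sets, which are not replicates, Pearson's r of log2 values was 0.954 between the normal array and each mutant array and 0.968 between the mutants. For Dnmt3l itself the normal array gave 12.2 and mutants 1 and 2 gave 183 and 14.3, and the filter removed its probe set. The embryos keep a wildtype paternal copy, and the probes' place relative to the deletion was not looked up, so this did not check the labels. Of 10 neural plate genes measured 10 were kept, with signals of at least 106 on every array. Of 11 somite or muscle precursor genes measured 7 were kept, with signals down to 48.4, and Uncx, Myf5, Myog and Ripply2 were below the filter. The probability values below come from limma, which took the spread from the 2 mutant arrays and assumed that the 1 normal array varies in the same way. An exact permutation test of 1 array against 2 cannot give a p below 0.333, so it was not used.

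Among the 8 genes, Nkx2-5, Tbx5, Isl1, Mef2c and Hand2 read lower than normal in both mutant arrays, Hand1 and Tbx20 read higher in both, and Smyd1 differed in sign. None of the 20 kept probe sets passed limma's test at an adjusted p of 0.05, against 0.577% of the 27022 kept probe sets. At an unadjusted p under 0.05 the limma fit gave 5 of the 20, against 13.6% of all kept. Counted by the brightest kept probe set of each gene, 5 of 8 were lower in both mutant arrays, where 39.1% of the 12913 genes with a kept probe set were. On the higher side the count was 2 of 8, where the share of all genes was 36.5%. Both shares are the background for the list counts below. The median log2 ratio over the 8 genes was -0.33, with -0.57 in mutant 1 and -0.17 in mutant 2, and the median over all 12913 genes was -0.02. Log2 ratios throughout compare log2(signal + 31.92) in a mutant array or their mean with the normal array, and they understate the change of dim genes. In RNA of whole embryos, fewer heart cells and less RNA per heart cell cannot be told apart. Markers of yolk sac endoderm were higher in both mutants (20 of 20 kept genes, median log2 ratio 2.80). So were those of primitive red cells (13 of 13, median 1.52). Of these, 17 and 2 passed, where 0.759% of all genes did. Of 8 decidua genes kept, 5 were lower in both mutants and 2 were higher. The decidua gene Prl8a2 passed, with 1376 for normal and 91.2 and 111 for the mutants (log2 ratio -3.41, limma adjusted p = 0.0212). The part of these tissues in the lower readings was not tested.

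**Figure D1:**
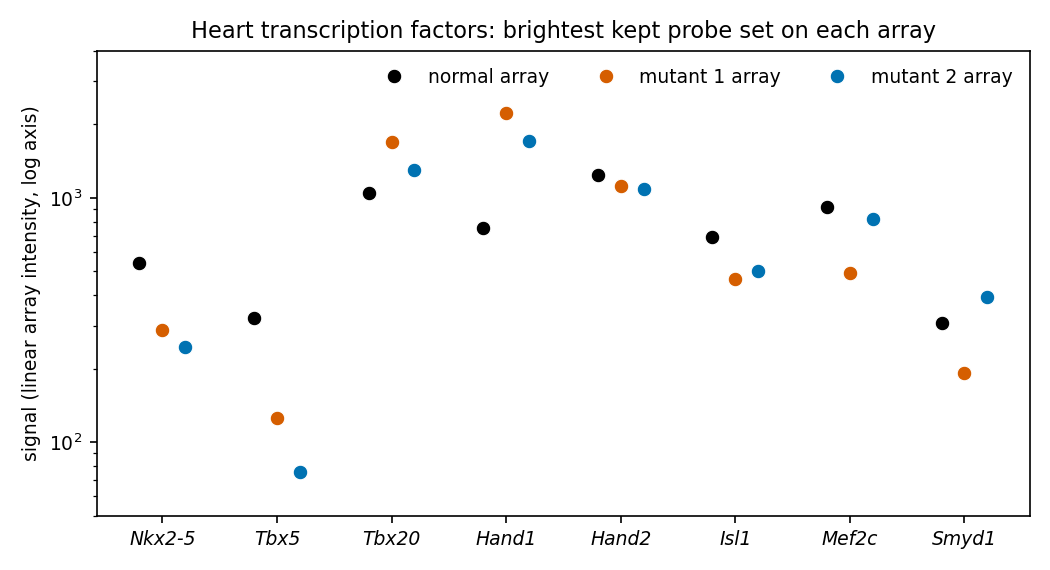
Signal (linear intensity, log axis) of the brightest kept probe set of each gene, with 1 point for the normal array and 1 for each mutant array. Nkx2-5 and Tbx5 lie lower in both mutants, Hand1 lies higher in both (750 against 2233 and 1710), and Hand2 lies close together on all 3 arrays.

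The stretches just upstream of 4 of these genes are shown because these genes read differently from each other: Nkx2-5 and Isl1 were lower in both mutants, Hand2 differed least among the 4, and Tbx20 was higher. Each line holds the 250 bases before the annotated start site, 5′ to 3′ on the gene's strand, from RefSeq on GRCm38.p6. Capitals mark matches on either strand to the NK2 homeobox core AAGTG, the T-box core GGTGT, the E-box CANNTG bound by Hand proteins and the GATA core GATAA.
Nkx2-5, chr17:26841566-26841815, minus strand: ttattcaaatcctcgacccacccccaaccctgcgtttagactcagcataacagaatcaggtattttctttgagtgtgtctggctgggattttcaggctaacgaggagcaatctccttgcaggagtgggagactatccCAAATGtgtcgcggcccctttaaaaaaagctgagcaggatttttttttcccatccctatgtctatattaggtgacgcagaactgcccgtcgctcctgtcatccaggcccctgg
Isl1, chr13:116309689-116309938, minus strand: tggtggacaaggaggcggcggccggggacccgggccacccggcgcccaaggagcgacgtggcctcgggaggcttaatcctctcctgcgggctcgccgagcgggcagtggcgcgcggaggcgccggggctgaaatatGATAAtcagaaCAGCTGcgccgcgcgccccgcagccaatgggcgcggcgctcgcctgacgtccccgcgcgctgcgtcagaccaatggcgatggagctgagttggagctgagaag
Hand2, chr8:57320733-57320982, plus strand: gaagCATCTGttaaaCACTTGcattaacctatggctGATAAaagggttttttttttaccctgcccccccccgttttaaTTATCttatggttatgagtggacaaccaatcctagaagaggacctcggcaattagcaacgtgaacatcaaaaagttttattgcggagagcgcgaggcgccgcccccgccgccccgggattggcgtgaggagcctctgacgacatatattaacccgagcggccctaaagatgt
Tbx20, chr9:24774304-24774553, minus strand: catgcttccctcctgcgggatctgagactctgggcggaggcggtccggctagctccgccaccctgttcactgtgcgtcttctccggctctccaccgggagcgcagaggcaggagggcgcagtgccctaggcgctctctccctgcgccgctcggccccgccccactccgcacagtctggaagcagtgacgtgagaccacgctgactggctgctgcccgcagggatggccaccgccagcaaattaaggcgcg

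Promoter sequence was found for 6 of the 8 genes, all but Tbx5 and Hand1. The NK2 core and an E-box overlap at the same bases in Hand2, and Hand2 has GATAA or its complement at 2 places. Isl1 holds 1 E-box beside 1 GATA core, Nkx2-5 holds 1 E-box, and Tbx20 holds none of the 4 motifs in this window. The MEF2 box was found in none of the 6 genes. These short motifs are common, since the E-box lies in 66.2% of all 32851 RefSeq promoter windows of this length, the NK2 core in 40.7%, the T-box core in 36.2% and the GATA core in 22.6%, while the MEF2 box lies in 0.508%. The promoters also differ in CpG dinucleotides, the bases at which methylation is set. Isl1 has 33, Tbx20 22, Hand2 15 and Nkx2-5 8, beside a median of 6 over all windows. The Mef2c windows, not printed here, have 1, 6 and 4, and the Smyd1 window has 2. A link between CpG counts and the array ratios was not tested. Methylation was not measured here.

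Nkx2-5, among the earliest genes switched on in heart precursors and needed for looping, was read by 1 probe set, 1449566_at. The normal array gave a signal of 540, mutant 1 gave 287 and mutant 2 gave 246. Both mutant arrays were below the normal one, and they differed from each other by less than either differed from the normal array. The log2 ratio was -0.94 (SE 0.28, 95% interval -1.65 to -0.24), with an adjusted p of 0.253 by limma.

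Tbx5, which patterns the left ventricle and the atria and is also needed for the forelimb, had the lowest ratio of the 8. Probe set 1425695_at read 322 for normal and 126 and 75.3 for the mutants. Both mutant signals were below the normal one, and mutant 2 was the lower. The log2 ratio was -1.45 (SE 0.38, 95% interval -2.39 to -0.50, limma adjusted p = 0.217). The other Tbx5 probe set was removed by the filter. It read 70.2 for normal and 90.1 and 56.6 for the mutants, with the normal array in between, so the lower reading rests on a single probe set.

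Tbx20, a T-box factor that represses and activates genes in the growing heart tube, read the other way. Its brightest probe set, 1453351_at, gave 1044 for normal and 1690 and 1295 for the mutants. Both mutant arrays were above the normal one and mutant 1 was the higher. The log2 ratio was 0.49 (SE 0.25, 95% interval -0.14 to 1.12, limma adjusted p = 0.479). Of its other kept probe sets, 1422219_a_at gave 91.9, 141 and 138 in the same order, again higher in both mutants. The remaining one, 1425158_at, gave 157 on the normal array, 274 on mutant 1 and 142 on mutant 2, so the mutants lay on both sides of normal.

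Within each array the T-box pair was apart. The Tbx20 log2 ratio exceeded that of Tbx5 by 1.85 in mutant 1 and by 2.02 in mutant 2, for the brightest probe set of each. This difference between the genes was not tested.

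Hand1 had the highest ratio. Hand1 acts in the left ventricle, and it is also strongly expressed in trophoblast giant cells and in the mesoderm of the extraembryonic membranes. Probe set 1417525_at had signals of 750 (normal), 2233 (mutant 1) and 1710 (mutant 2). Both mutant signals were more than 2-fold the normal one. The log2 ratio was 1.35 (SE 0.25, 95% interval 0.72 to 1.97), and the limma adjusted p was 0.12. The dimmer probe set, 1448750_at, read 168 on the normal array, 459 on mutant 1 and 176 on mutant 2. There only mutant 1 stood clear of the normal array, and the log2 ratio was 0.68 (SE 0.54).

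Markers of the other tissues that express Hand1 were read on the same arrays. Of 12 trophoblast genes listed, 7 were measured and 4 kept. Of these 4, 3 were higher in both mutants, and their summed signal was 2163 for normal and 4143 and 3197 for the mutants. Esx1, a homeobox gene of the placenta, rose from 159 to 786 and 982 (log2 ratio 2.25, SE 0.28, limma adjusted p = 0.0498). Plac1 read 371 against 1359 and 1302, and Tfap2c 380 against 813 and 418. Cdx2, the remaining gene, was lower in both mutants, with 1252 against 1184 and 494, and it gave the largest part of the normal sum. The giant cell genes Prl3d1 and Prl2c2 had no probe set with a single symbol and were not analysed here. Tpbpa, Elf5 and Ascl2 were below the filter. The brightest probe set of Tpbpa, the defining spongiotrophoblast marker, read 180 for normal and 32.8 and 23.3 for the mutants, opposite to Hand1. That of Elf5 read 45.0 for normal and 145 and 105 for the mutants, in the direction of Hand1. The other Elf5 probe set read 60.8, 234 and 16.6 in the same order, and Ascl2 signals were at most 29.5. Of 13 allantois, amnion and extraembryonic mesoderm genes, 12 were kept. Of these 8 were higher in both mutants, 3 were lower in both and 1 differed in sign. Their summed signal was 22993 for normal and 31255 and 29826 for the mutants. That sum is weighted to the brightest genes, Igf2bp1 (7512 on the normal array), Krt8 (5550) and Krt18 (5486). Postn (log2 ratio 1.99), Col1a1 (2.22) and Tdo2 (1.20) led that list, and none of it passed. The part of these tissues in the Hand1 signal was not tested.

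Hand2, the related factor of the right ventricle that also acts in the pharyngeal arches and limb buds, differed little. Probe set 1436041_at read 1240 for normal and 1115 and 1089 for the mutants. The mutants were below normal by less than the fit can resolve, with a log2 ratio of -0.17 (SE 0.22, 95% interval -0.71 to 0.38, limma adjusted p = 0.791). A dimmer probe set gave 163, 130 and 153 in the same order and a ratio of -0.18. A further probe set read 7.58 for normal and 3.89 and 3.16 for the mutants, and the filter removed it. Within each array the Hand1 log2 ratio exceeded that of Hand2 by 1.68 in mutant 1 and 1.34 in mutant 2. This difference was not tested.

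Isl1, which keeps second field precursors dividing and is also made in motor neurons and foregut endoderm, was lower in both mutants by both of its probe sets. Probe set 1450723_at read 694 for normal and 464 and 501 for the mutants. Probe set 1422720_at read 494 for normal and 288 and 323 for the mutants. In each case the mutant arrays lay close together and below normal. The log2 ratios were -0.50 (SE 0.25, 95% interval -1.13 to 0.13, limma adjusted p = 0.47) and -0.64 (SE 0.27, 95% interval -1.33 to 0.04, limma adjusted p = 0.393). Both probe sets carry the same source accession in the annotation, so they do not count as independent readings of the gene. Of 10 motor neuron and early neuron genes measured 8 were kept, with signals down to 39.6, and Olig2 and Slc18a3 were below the filter. The 8 kept gave a median log2 ratio of -0.46 in mutant 1 and 0.42 in mutant 2, with single genes from -0.82 to 1.01. The 11 foregut endoderm genes kept gave -0.27 and 0.16. Single genes ran from -1.34 (Otx2) to 2.30 (Spink1, which passed with a limma adjusted p of 0.0269). Otx2 and Sox2 are also in the list of neural plate genes, so their readings are not those of foregut alone. The part of these tissues in the Isl1 signal was not tested.

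Mef2c, a factor of second field precursors that also acts in endothelium and skeletal muscle, had 5 kept probe sets, and 4 of them were lower in both mutants. The brightest, 1424852_at, read 916 on the normal array, 492.5 on mutant 1 and 818 on mutant 2. Here mutant 1 stood well below normal and mutant 2 was close to it, for a log2 ratio of -0.51 (SE 0.35, limma adjusted p = 0.593). Probe set 1421027_a_at showed the same contrast between the mutants, with 577 on the normal array, 391 on mutant 1 and 665 on mutant 2.

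A pair of dimmer Mef2c probe sets did not separate the mutants in that way. Probe set 1451506_at read 455.5 for normal and 264 and 256 for the mutants, and its log2 ratio was -0.74 (SE 0.28, limma adjusted p = 0.344). Probe set 1421028_a_at read 406 for normal and 243 and 191 for the mutants, and its log2 ratio was -0.82 (SE 0.31, limma adjusted p = 0.342). The dimmest, 1451507_at, read 245 for normal and 212 and 238 for the mutants, all close together. The Mef2c probe sets thus disagreed on mutant 2, from a log2 ratio of 0.20 to -0.98. Whether they read different Mef2c transcripts was not analysed here. Endothelial genes, a further source of Mef2c, gave 9 of 13 kept that were higher in both mutants and 2 that were lower in both, with a median log2 ratio of 0.35 and a summed signal of 6626 for normal and 7117 and 9146 for the mutants. Plvap, 1 of the lower genes, read 1095 against 435 and 747. The part of endothelium in the Mef2c signal was not tested.

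Smyd1, needed for the growth of the ventricles and for myofibril assembly, had 6 probe sets, of which 4 were kept. Its brightest, 1441667_s_at, read 307 on the normal array, 192 on mutant 1 and 393 on mutant 2, so the mutants lay on both sides of normal. Probe set 1450203_at did the same, with 212 on the normal array, 148 on mutant 1 and 242 on mutant 2. The other 2 kept probe sets were lower in both mutants, with 308 against 209 and 272, and 232 against 215 and 188. The log2 ratios of the 4 ranged from -0.33 to -0.13, and the 95% interval of the brightest ran from -1.24 to 0.97. The 2 probe sets removed by the filter read between 14.3 and 88.8.

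**Figure D2:**
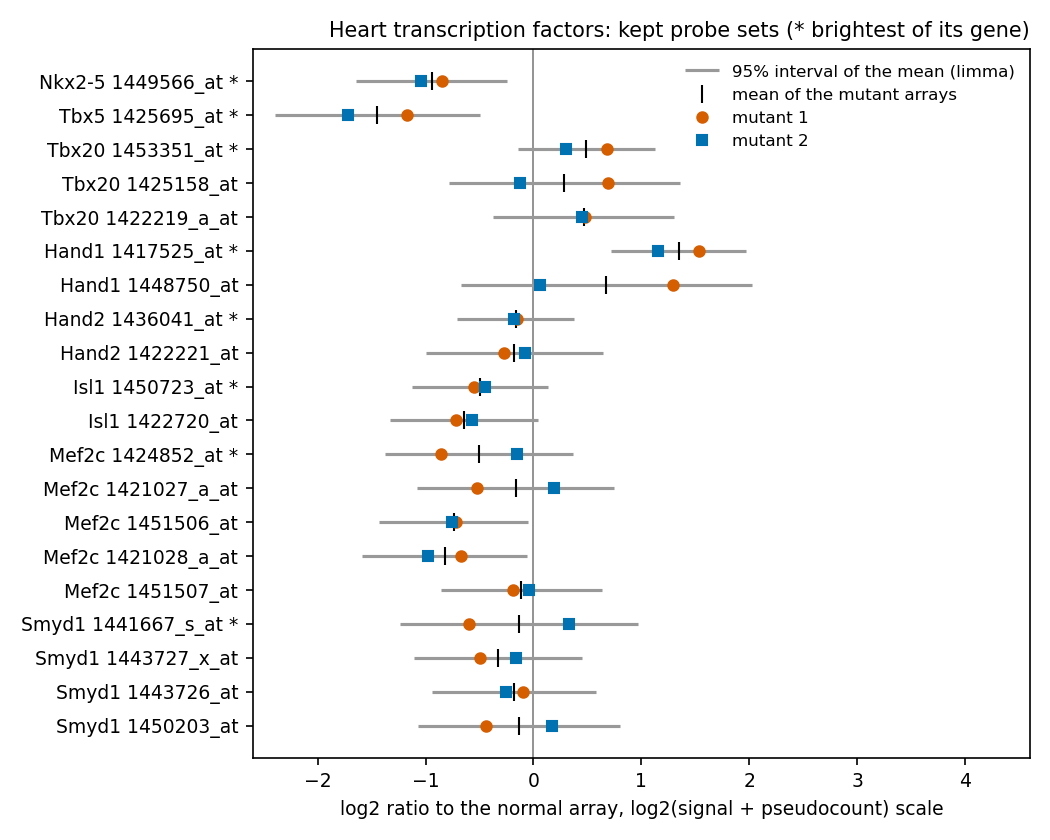
Log2 ratio to the normal array for each of the 20 kept probe sets, with mutant 1 as circles, mutant 2 as squares, the mean as a tick and its 95% interval from limma as a line. Intervals of Nkx2-5, Tbx5, the brightest Hand1 probe set and 2 dimmer Mef2c probe sets leave out 0 before adjustment, and the brightest Smyd1 probe set has its mutants on both sides of 0.

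Over all 20 kept probe sets, 12 were lower in both mutants, 4 were higher in both and 4 differed in sign. Mef2c gave 5 and Smyd1 4 of the 20, so this count is weighted to these genes. For all 27022 kept probe sets the shares were 42.5% lower in both and 32.2% higher in both. The mutant arrays differed from each other by a median of 0.24 in absolute log2 terms over all kept probe sets, with a 90th percentile of 0.72. The difference of mutant 2 minus mutant 1 was 0.92 for the brightest Smyd1 probe set, above that percentile, and 0.70 for that of Mef2c, just under it. It was -1.24 for the dimmer Hand1 probe set and -0.81 for Tbx20 1425158_at, the other kept probe sets beyond that percentile in size besides Mef2c 1421027_a_at (0.72). It was -0.20 for Nkx2-5 and -0.55 for Tbx5, which read lowest in mutant 2.

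Contractile and other myocardial genes, several of them known targets of these factors, were read to set the regulators beside the muscle they act in. Of 33 listed, 31 were kept, 23 were lower in both mutants and 0 were higher in both, beside 39.1% and 36.5% of all genes. None passed limma's adjusted test, which 0.759% of the 12913 genes did, and 6 had an unadjusted p under 0.05, all lower, where 4.24% of all genes were lower at that p. The median log2 ratio was -0.73, with -0.92 in mutant 1 and -0.30 in mutant 2. Their summed signal was 74124 on the normal array, 45786 on mutant 1 and 59738 on mutant 2. By the naming rule, Tnnt2, the cardiac troponin T gene, read 4141 for normal and 1729 and 2130 for the mutants. Tnni1, a troponin I of embryonic heart and slow muscle, read 2616 against 1116 and 1464, and Myl7, the atrial myosin light chain, 8287 against 4364 and 5180. Hspb7 (log2 ratio -0.74), Myl3 (-1.36) and Ldb3 (-0.76) followed.

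The order of the mutant arrays was read for the muscle genes and for the regulators. Of the 31 myocardial genes, 28 had a higher ratio in mutant 2 than in mutant 1, where 54.7% of all 12913 genes did, and the median of mutant 2 minus mutant 1 was 0.50 beside 0.03 for all genes. Among the 8 regulators 3 did so, Isl1, Mef2c and Smyd1. The differences of Hand2 (-0.03), Isl1 (0.10) and Nkx2-5 (-0.20) were smaller than the median of 0.24 between the mutants, so their order is not resolved. Those of Smyd1 (0.92) and Mef2c (0.70) were the largest of the 8 in size and went the same way as most muscle genes. Nppa, an atrial natriuretic peptide gene that Nkx2-5, Tbx5 and GATA factors activate, showed the widest gap in the list and is named after its values were seen. It read 399 on the normal array, 117 on mutant 1 and 735 on mutant 2. For Tbx5 and Nkx2-5, mutant 2 minus mutant 1 was -0.55 and -0.20, both within the 90th percentile of 0.72 in size. The part of these regulators in the Nppa readings was not tested. Neural plate genes (median -1.10 in mutant 1 and -0.80 in mutant 2) and somite or muscle precursor genes (-1.02 and -0.31) also had lower medians in mutant 1. The ratio was higher in mutant 2 for 6 of the 10 neural plate genes and 5 of the 7 somite or muscle precursor genes, beside the 54.7% of all genes. Their part in the difference between the mutant arrays was not tested.

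**Figure D3:**
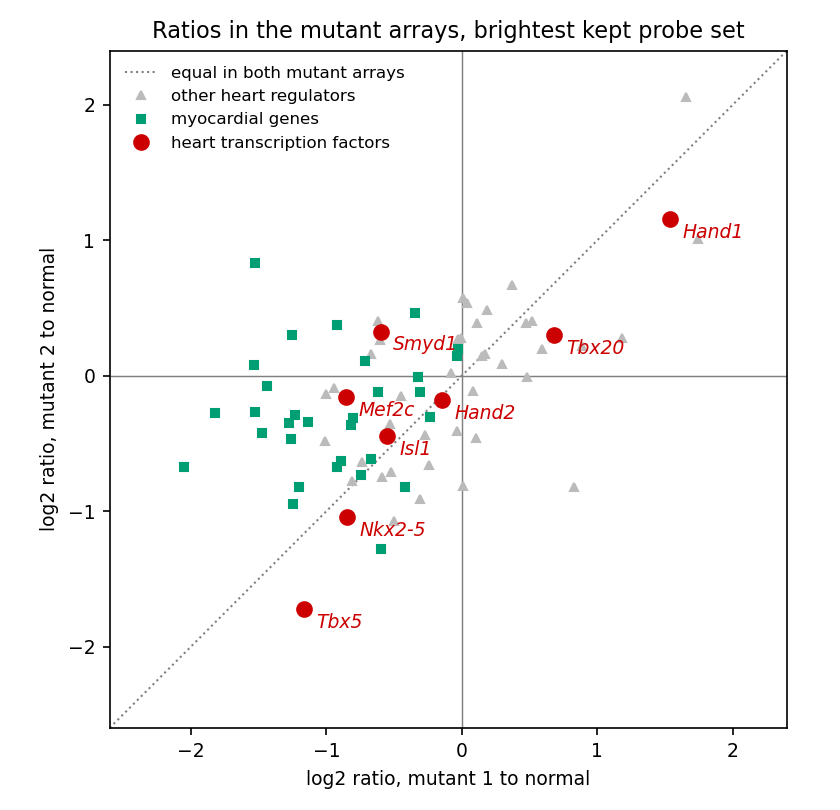
Log2 ratio in mutant 2 (vertical) against that in mutant 1 (horizontal) for the 8 heart transcription factors (red circles), 31 myocardial genes (green squares) and 41 other heart regulators (grey triangles), each by its brightest kept probe set. Myocardial genes lie above the dotted line of equal ratios in 28 of 31 cases. Nkx2-5, Tbx5, Tbx20, Hand1 and Hand2 lie below it, with Hand2 (mutant 2 minus mutant 1 of -0.03) and Nkx2-5 (-0.20) close to the line.

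Other regulators of heart development showed no common direction. Of 44 listed, 41 were kept, with a median log2 ratio of -0.03. Of these, 15 were lower in both mutants, 15 were higher in both and 11 differed in sign. The shares of all genes were 39.1% lower and 36.5% higher in both. Plagl1 alone passed. It is an imprinted zinc finger gene expressed from the paternal allele and, in mice, a partner of Nkx2-5 in heart muscle, and it rose from 3617 to 11462 and 15204 (log2 ratio 1.86, SE 0.21, limma adjusted p = 0.0408). Without the filter, or without a variance trend in limma, no probe set of the array passed. The Plagl1 call and every other call given here, such as Esx1, Spink1 and Prl8a2, therefore rest on both choices. Zfpm1, a GATA cofactor of blood and heart, read 513 for normal and 1788 and 1065 for the mutants. The other genes named by the rule were lower in both mutants, and none of them passed. Tbx1, needed for the outflow tract, had a log2 ratio of -0.79 (SE 0.27), and the serum response factor coactivator Myocd had -0.67 (SE 0.27). Smarcd3, the heart subunit of the BAF chromatin complex, read 1031 against 718 and 473. The rest were Sall1 (-0.69), Tcf21 (-0.62) and Irx5 (-0.74). The GATA factors, the usual partners of Nkx2-5 and Tbx5, are named after their values were seen. Gata4 read 453 on the normal array, 866 on mutant 1 and 535 on mutant 2. Gata6 read 1118, 1127 and 1676 in that order, so mutant 1 was level with normal. Gata5 read 448, 355 and 223, lower in both mutants. Gata4 and Gata6 are also made in yolk sac endoderm, whose 20 kept markers were all higher in both mutants (summed signal 25393 for normal and 128262 and 137395 for the mutants). The part of yolk sac endoderm in these values was not tested.

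Signals that induce or position the heart read lower more often than higher. Of 23 listed, 21 were kept, 15 were lower in both mutants and 3 were higher in both, with a median log2 ratio of -0.33. Over all genes 39.1% were lower and 36.5% higher in both. None passed, and 5 had an unadjusted p under 0.05 in limma, all lower, where 4.24% of all genes were lower at that p. Fgf8, a growth factor of the pharyngeal region and the tailbud that supports second field cells, read 542 for normal and 189 and 107 for the mutants (log2 ratio -1.71, SE 0.38, limma adjusted p = 0.172). Tdgf1, a Nodal coreceptor needed in mice for heart muscle to form, read 199 against 78.6 and 60.5. Aldh1a2, the enzyme that makes retinoic acid for the posterior heart field, read 2305 against 1450 and 1173. Wnt2b (log2 ratio -0.98), Fgf3 (-1.09) and the secreted Wnt inhibitor Sfrp5 (-0.64) followed. These genes also act in tailbud, hindbrain and somites, so their signal in whole embryos is not that of the heart field alone. Bmp4, chosen after its values were seen, was 1 of the 3 that were higher in both, with 721 for normal and 1121 and 1015 for the mutants.

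Relatives of the 8 proteins gave a median log2 ratio of 0.13 over the 21 kept. Of these, 5 were lower and 9 higher in both mutants, and none passed. Several of the relatives, among them Tbx1, Tbx2 and Mef2d, are also in the list of other heart regulators. The results of these lists are therefore not separate. Tbx6, a T-box factor of the presomitic mesoderm, had a log2 ratio of -1.11 (SE 0.27), and Tbx4, of the allantois and hindlimb, had 1.20 (SE 0.47). Tbx2 (0.46), Mef2d (0.43) and Smyd5 (-0.46) were smaller, and Tbx1 was given above. T-box genes therefore read in both directions, as Tbx5 and Tbx20 did.

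**Figure D4:**
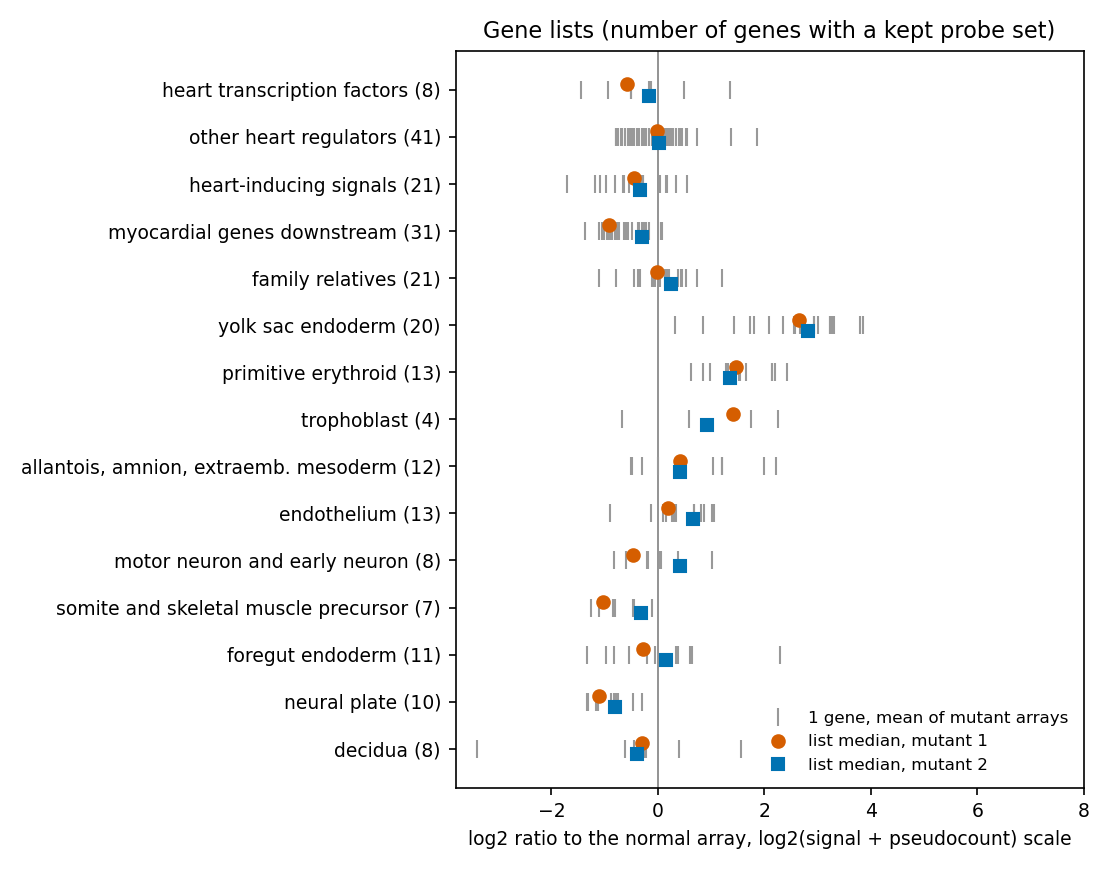
Log2 ratios of 15 gene lists, with 1 grey tick per gene (mean of the mutant arrays), a circle for the list median in mutant 1 and a square for that in mutant 2. The 8 heart transcription factors spread from -1.45 to 1.35, myocardial genes lie mostly below 0, and yolk sac endoderm genes lie highest, with medians of 2.65 and 2.82.

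The chromosomal neighbours of the 8 genes were read as well. The nearest 2 genes on each side with a kept probe set made 32 neighbours, of which 14 were lower in both mutants, 12 were higher in both and 6 differed in sign. Their median log2 ratio was -0.03, and none passed limma's adjusted test. The lowest was -0.90, and none was at least 2-fold lower in both mutants, as 0.635% of all genes were. The 2 that were at least 2-fold higher in both, as 3.24% of all genes were, lie beside Smyd1. Thnsl2 read 87.2 for normal and 466 and 422 for the mutants, and Fabp1, a fatty acid binding protein gene of liver, gut and yolk sac endoderm, read 100.4 against 474 and 303. Smyd1 itself did not share their direction.

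Over the 2 ratios available for each gene, the genes of the array closest to Nkx2-5 were Trmt9b (distance 0.0103 in log2 units) and Hoxd9 (0.0358). Those closest to Tbx5 were 5730507C01Rik (0.102) and AA386476 (0.133), and those closest to Hand1 were the heat shock gene Hspa1b (0.0353) and the erythropoietin receptor gene Epor (0.0587). Tbx20 lay nearest to Smpd4 and Usp13, Hand2 to Fbxo38 and Grpel1, Isl1 to Wt1 and 2010315B03Rik, Mef2c to Dpysl2 and Ltbp1, and Smyd1 to Gm9999 and Itprip. With 2 mutant arrays set against 1 normal array, such nearness is a description of 2 numbers per gene. No member was nearest to another member.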

How the data were processed

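Each deposited value is the intensity of 1 probe set on 1 array, on a linear scale. Per the submitters' processing notes they were made with GCOS and MAS5, with versions and settings not given in the sources used here. With the top and bottom 2% of values left out, all 3 arrays had a mean of 500.0, so each reading is relative to that level. Whether a gain of signal in 1 tissue lowered the readings of others was not tested. Genes were named from the platform's probe annotation (34945 probe sets with 1 symbol, 932 with several, 9160 without), and names and neighbours were checked against RefSeq's GRCm38.p6 gene table, which changed 0 symbols.

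The pseudocount of 31.92 was the median of the arrays' 20th percentiles. Probe sets at or above the 40th percentile of log2 level (normal and mutant means weighted equally) were kept. Limma 3.58.1 in R 4.3.3 (lmFit, eBayes with a variance trend, two-sided, Benjamini-Hochberg over 27022 kept probe sets, threshold 0.05) was fitted to all 3 arrays, with 1 residual degree of freedom. The labels do not say whether replicate pools came from separate litters, so p-values measure the spread between these arrays. The members and lists were chosen with earlier results of these data known. Genes named by rule were those of a list that passed, then those with the largest size of the smaller ratio among genes of 1 sign. The yolk sac, red cell, decidua, endothelium, neuron, foregut, neural plate and somite lists were summarised without naming all such genes. Alternatives changed the pseudocount, filter, scaling, variance model, probe set rule and mutant array.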

Additional observations from a re-analysis of the deposited data

How the results depend on the processing

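None of the 20 kept probe sets of the 8 genes changed direction or passed the adjusted threshold in the 175 values obtained with another pseudocount, filter, scaling or variance model. For the brightest probe sets, Hand1 ranged from 1.31 to 1.42 on the log2 scale with adjusted p from 0.0951 to 0.296, Tbx5 from -1.72 to -1.25 (0.198 to 0.393) and Nkx2-5 from -1.02 to -0.87 (0.236 to 0.391). The stricter filter removed Tbx5 and left 7 genes with a median log2 ratio of -0.17, of which 4 were lower in both mutants. Leaving out 1 mutant array gave medians of -0.57 (mutant 1 alone) and -0.17 (mutant 2 alone), with 6 and 5 of the 8 genes lower. Over all kept probe sets, 148 passed as higher and 8 as lower. These counts became 0 and 0 without the filter, 0 and 0 without a variance trend, and 263 and 24 with median centring. At an unadjusted p under 0.05, limma gave 2423 higher and 2451 lower without the filter, and 1641 and 1814 without a trend. The cause was not tested. No paired analysis was possible because the normal group had 1 array. Signals near the pseudocount, such as Tbx5 in mutant 2 (75.3), limit the size of a ratio.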
